A study of Homo sapiens with 8 samples.

Results

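The genes described here encode 36 enzymes that make nucleotides and deoxynucleotides, taken as a fixed list of names and found by symbol in the deposited expression table. All 36 of 36 were among its 25066 genes, and 35 passed a filter on low levels that left 12533 genes for testing. The table uses older symbols for some of them: CTPS (now CTPS1), ADSS (ADSS2), ADSSL1 (ADSS1) and NP (PNP). RNA was sequenced from TMD8, an established human cell line of diffuse large B cell lymphoma of the ABC (activated B cell) kind. All cells had been transduced by lentivirus to express Cas9 and stably carried a guide RNA. The control guide, sgCTRL, gave cells labelled KLHL14(+/+), and a guide against KLHL14, sgKLHL14, gave cells labelled KLHL14(-/-). Whether the edited cells were a pool or 1 clone is not given in the sources used here. KLHL14 is a substrate adaptor of a cullin-3 ubiquitin ligase. Both kinds of cell received the solvent DMSO or ibrutinib, a covalent inhibitor of the B cell receptor kinase BTK, at 2 nM for 24 h. There were 4 groups of 2 libraries each. The sources used here do not say whether the libraries of a group were separate cultures, so p-values measure only the spread between these samples, and that spread may be technical.

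As background, a growing lymphocyte has to double its nucleotides before it divides. De novo synthesis builds the purine ring step by step on phosphoribosyl pyrophosphate (PRPP) up to IMP, from which AMP and GMP are made, and builds the pyrimidine ring first as orotate and then as UMP and CTP. Ribonucleotide reductase turns ribonucleotides into deoxynucleotides, and thymidylate synthase makes dTMP from dUMP. Salvage enzymes recover bases and nucleosides instead of building them. B cells stimulated through their receptor raise many of these enzymes, and several are drug targets: mycophenolate acts on the IMP dehydrogenases, leflunomide and brequinar on DHODH, hydroxyurea on ribonucleotide reductase and methotrexate or fluorouracil on thymidylate synthesis.

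The libraries held 12333876 to 23467110 reads, and those in ibrutinib (12333876 to 16843591) were mostly shallower than those in DMSO (13497206 to 23467110). Within a group, the correlation between libraries across genes was 0.994 to 0.996. A library is named below by its guide, treatment and replicate number, as in sgCTRL DMSO 2. KLHL14 mRNA had log2 levels of 12.07 and 12.06 (sgCTRL) and 12.19 and 12.33 (sgKLHL14) in DMSO, against 12.30 and 12.30 (sgCTRL) and 13.16 and 13.16 (sgKLHL14) in ibrutinib, so it was not lower under its own guide. A gene count does not show small insertions or deletions and does not check the genotype, so results by guide are given for the libraries labelled sgKLHL14. B cell markers passed the level filter in 8 of 8 cases, with MS4A1 at a mean log2 level of 15.58. Of 5 T cell markers 1 passed (CD8A, 5.60) and 2 were at 0 in all libraries, of 5 myeloid markers 0 passed, and of 6 epithelial and fibroblast markers 4 passed, with KRT8 highest at 7.83. In bulk RNA, fewer cells making a transcript and less transcript per cell cannot be told apart, and this holds for each value here.

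Promoter sequences are shown for 6 of the enzymes, to set 4 genes with an E-box beside the 2 salvage genes with the lowest log2 changes in ibrutinib. The E-box, CACGTG, is the letter sequence known to be bound by MYC with MAX and by related factors, and it reads the same on both strands. RefSeq promoter windows on GRCh38.p14 (250 bases before to 50 after the start site) were matched for 33 of the 36 genes, and ADSL, IMPDH2 and RRM2B had no entry. Windows are on the plus strand, 5′ to 3′, at chr4:56435502-56435801 for PAICS, chr2:215311809-215312108 for ATIC, chr17:51153309-51153608 for NME1, chr4:70993399-70993698 for DCK, chrX:134459915-134460214 for HPRT1 and chr1:165827364-165827663 for UCK2, with each E-box in capitals.
PAICS: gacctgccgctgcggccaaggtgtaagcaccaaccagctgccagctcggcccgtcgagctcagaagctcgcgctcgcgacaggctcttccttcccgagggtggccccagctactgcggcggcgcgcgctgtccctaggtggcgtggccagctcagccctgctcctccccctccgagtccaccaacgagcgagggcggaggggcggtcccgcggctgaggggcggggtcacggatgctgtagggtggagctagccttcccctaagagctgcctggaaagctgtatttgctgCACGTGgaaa
ATIC: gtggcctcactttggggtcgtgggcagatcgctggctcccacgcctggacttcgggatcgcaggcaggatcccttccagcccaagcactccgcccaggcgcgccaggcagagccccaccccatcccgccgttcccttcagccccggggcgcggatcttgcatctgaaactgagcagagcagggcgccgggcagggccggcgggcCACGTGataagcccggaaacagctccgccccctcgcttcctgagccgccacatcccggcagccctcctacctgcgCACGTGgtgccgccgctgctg
NME1: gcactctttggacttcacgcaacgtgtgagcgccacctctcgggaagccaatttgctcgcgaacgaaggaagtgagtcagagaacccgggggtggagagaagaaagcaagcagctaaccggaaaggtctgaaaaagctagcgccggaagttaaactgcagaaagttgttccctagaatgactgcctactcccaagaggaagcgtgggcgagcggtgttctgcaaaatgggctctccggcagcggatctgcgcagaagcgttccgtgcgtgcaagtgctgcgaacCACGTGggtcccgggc
DCK: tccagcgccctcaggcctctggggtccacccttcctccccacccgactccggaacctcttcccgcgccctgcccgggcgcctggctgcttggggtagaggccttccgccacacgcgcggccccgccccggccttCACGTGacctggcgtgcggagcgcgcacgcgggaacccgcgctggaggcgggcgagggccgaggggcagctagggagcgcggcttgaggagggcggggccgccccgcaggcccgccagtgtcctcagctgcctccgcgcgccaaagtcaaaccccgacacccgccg
HPRT1: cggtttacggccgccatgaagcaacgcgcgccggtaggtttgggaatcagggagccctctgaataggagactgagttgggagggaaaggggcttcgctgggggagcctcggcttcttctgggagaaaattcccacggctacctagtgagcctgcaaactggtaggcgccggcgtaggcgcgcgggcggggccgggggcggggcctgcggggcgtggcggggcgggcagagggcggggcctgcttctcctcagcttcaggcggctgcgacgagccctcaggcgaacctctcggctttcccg
UCK2: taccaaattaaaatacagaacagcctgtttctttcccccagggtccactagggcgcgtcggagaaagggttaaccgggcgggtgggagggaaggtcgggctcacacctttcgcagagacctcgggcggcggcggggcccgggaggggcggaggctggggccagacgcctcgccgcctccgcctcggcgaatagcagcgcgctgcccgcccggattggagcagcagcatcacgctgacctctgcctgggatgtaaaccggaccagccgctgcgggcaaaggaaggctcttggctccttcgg
The E-box lay 41 bases after the start site in PAICS, 46 before and 30 after in ATIC, 35 after in NME1 and 116 before in DCK. HPRT1 and UCK2 held no such letters in these windows. PAICS also had windows at chr4:56410257-56410556 and chr4:56436010-56436309, not printed, and neither held an E-box. The PPAT and PAICS genes stand head to head, with start sites 137 bases apart. Their windows share 236 bases at chr4:56435566-56435801, which contain the PAICS E-box, so this site is counted for both genes.

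Of the 33 enzymes with a window, 6 had an E-box in at least 1 window (PPAT, PAICS, ATIC, DHODH, DCK and NME1), or 18.2%, against 8.77% of 27305 genes in the RefSeq promoter table. By window the shares were 12.5% of 48 and 7.26% of 35116. Neither share was tested, and the PPAT and PAICS windows overlap. The E2F-like letters TTTNNCGC, searched on both strands, were found in 14.6% of the 48 windows and 6.89% of all, in ADSS, DCK, DUT, GART, PRPS2 and TYMS. The CCAAT box was found in 31.3% against 34.6%, and the ATF4-like letters TGATGCA in 0 of 48 against 2.63%. These are matches of letters, and no binding was measured. Of the genes with an E-box, PAICS, PPAT and NME1 were called lower in ibrutinib with both guides, and DCK was called higher with both. ATIC was called lower with sgKLHL14 only and DHODH was not called, and both had changes below 0 with either guide. Values are given for each gene in turn.

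In ibrutinib, most enzymes of nucleotide synthesis had a log2 change below 0 against DMSO (28 of the 35 tested with sgCTRL and 30 with sgKLHL14, or 80% and 85.7%, against 47.5% and 48.5% of all tested genes). With sgCTRL, 16 of the 35 tested enzymes fell and 3 rose, where limma called 17.0% of all tested genes lower and 18.1% higher (35.1% in either direction). With sgKLHL14, 22 fell and 4 rose, where 19.4% of all genes were called lower and 19.9% higher (39.3%). The median log2 change of the 35 enzymes was -0.14 with sgCTRL and -0.28 with sgKLHL14, against 0.018 and 0.010 over all tested genes. The changes were small in size, from -0.58 (UCK2) to 0.40 (TK2) with sgCTRL and from -0.72 (HPRT1) to 0.48 (RRM2B) with sgKLHL14, on the log2 scale of the deposited table.

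With both guides 13 enzymes were called lower (PRPS2, PPAT, GART, PAICS, IMPDH1, IMPDH2, GMPS, CTPS, RRM1, DUT, HPRT1, UCK2 and NME1) and 3 were called higher (RRM2B, TK2 and DCK). These 16 were 84.2% of the calls made with sgCTRL and 61.5% of those made with sgKLHL14. The matching share of all tested genes called with both guides is not given here. This overlap is therefore not read as particular to the enzymes. Across both guides, all 4 ibrutinib libraries lay below all 4 DMSO libraries for 21 of the 35 enzymes, where this held for 21.2% of all tested genes. They lay above for 4 (CTPS2, RRM2B, TK2 and DCK), against 21.4% of all tested genes. The libraries overlapped for the other 10 (ADSL, CAD, DHODH, DTYMK, APRT, NP, UCK1, TK1, DGUOK and NME2). With reads thinned to the depth of the shallowest library, 20 enzymes were called with sgCTRL and 26 with sgKLHL14, beside 19 and 26 without thinning.

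Markers of B cells and of some other cell types also moved with ibrutinib, and their part in the enzymes' changes was not tested. Of the 8 B cell markers 5 rose and 1 fell with sgCTRL, and 6 rose and 1 fell with sgKLHL14, with medians of 0.34 and 0.35. Their summed level, on the linear scale of the table, was 82778 to 89011 in the DMSO libraries and 118060 to 121991 in the ibrutinib libraries. The summed level of the T cell markers was 37.8 to 41.0 in DMSO and 50.7 to 70.0 in ibrutinib, and CD8A rose by 0.74 with sgKLHL14 (limma adjusted p = 0.0323) and changed by 0.63 with sgCTRL (0.0731). The sums overlapped between treatments for the myeloid markers (17.6 to 26.0 and 15.3 to 32.5) and for the epithelial and fibroblast markers (402 to 506 and 419 to 476), of which 1 rose and 1 fell with either guide.

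**Figure D1:**
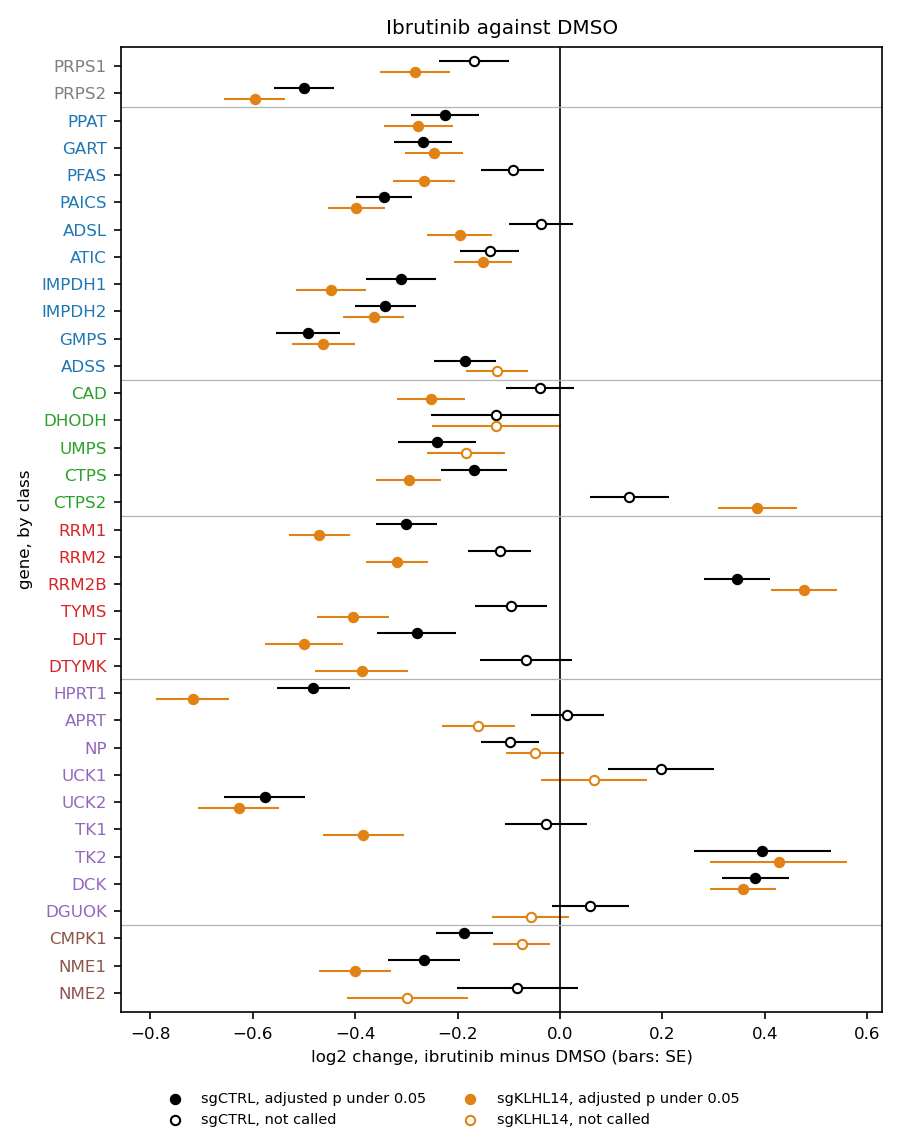
Log2 change between ibrutinib and DMSO for each of the 35 tested enzymes (vertical axis, coloured by class), with the SE as bars, for sgCTRL (black) and sgKLHL14 (orange). Filled points passed an adjusted p of 0.05 in limma: 19 with sgCTRL and 26 with sgKLHL14, and most lie left of the line at 0.

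**Figure D2:**
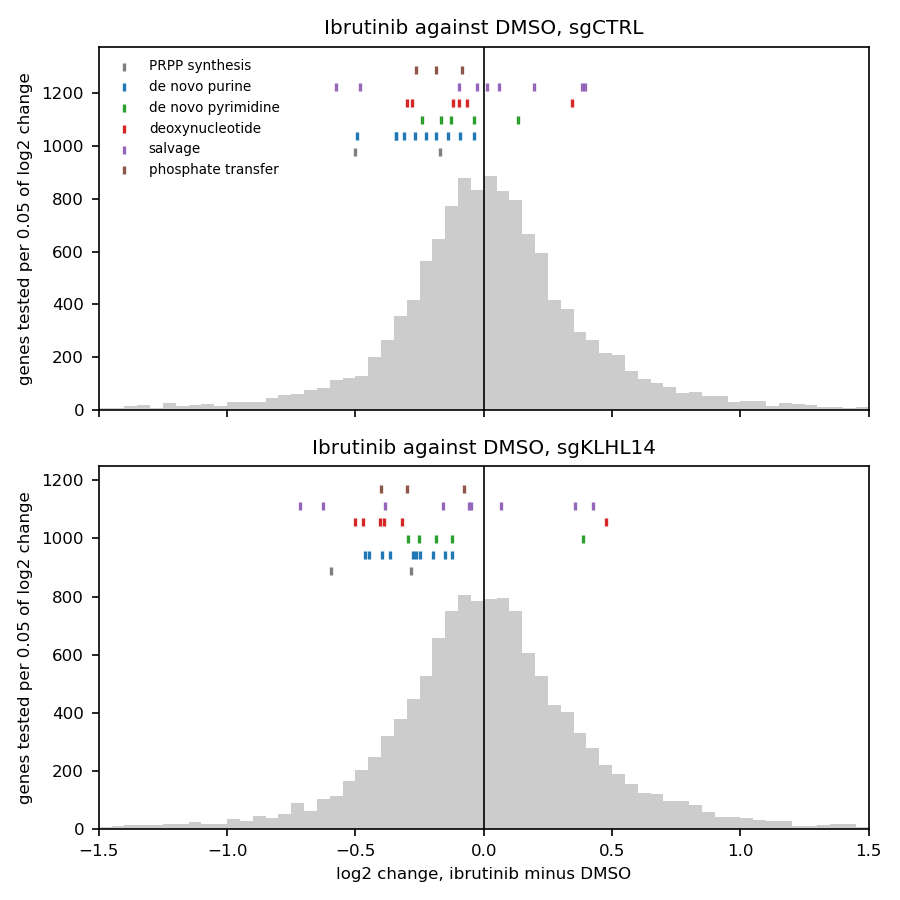
Grey bars give the number of tested genes per 0.05 of log2 change in ibrutinib against DMSO, with sgCTRL above and sgKLHL14 below (bars beyond 1.5 in either direction are not drawn). Coloured ticks mark the 35 enzymes by class, and their height has no meaning; the all-gene medians were 0.018 and 0.010, and the enzymes' medians -0.14 and -0.28.

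The PRPP synthetases make the activated ribose that de novo purine and pyrimidine synthesis needs, and the change of PRPS2 in ibrutinib was among the lowest of the set. PRPS2 had log2 levels of 11.97 and 12.01 (sgCTRL) and 11.96 and 11.96 (sgKLHL14) in DMSO, against 11.46 and 11.52 (sgCTRL) and 11.38 and 11.35 (sgKLHL14) in ibrutinib. The groups did not overlap, and each ibrutinib library was below each DMSO library. PRPS2 fell by 0.50 with sgCTRL (limma adjusted p = 2.18e-06) and fell by 0.60 with sgKLHL14 (2.03e-07; SE 0.059), a change of -29.3% and -33.8%. Its paralogue PRPS1 had levels of 11.71 and 11.84 (sgCTRL) and 11.82 and 11.87 (sgKLHL14) in DMSO, against 11.58 and 11.63 (sgCTRL) and 11.64 and 11.48 (sgKLHL14) in ibrutinib. All ibrutinib libraries were again below all DMSO libraries, but by less, and the changes were -0.17 with sgCTRL (limma adjusted p = 0.0617) and -0.28 with sgKLHL14 (0.00265; SE 0.068). Only the change with sgKLHL14 passed. With sgCTRL it passed under 8 of the 18 alternative settings, among them thinned reads (-0.19, limma adjusted p = 0.0426), median scaling (0.0497) and the omission of sgCTRL DMSO 1 (-0.24, 0.0400) or of any 1 of the 4 sgKLHL14 libraries (0.0482 to 0.0497). The call for PRPS1 with sgKLHL14 ended without the level filter (limma adjusted p = 0.0891) and on leaving out sgKLHL14 ibrutinib 2 (-0.20, 0.0618).

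Of the 10 tested enzymes of de novo purine synthesis, 7 fell with sgCTRL and 9 with sgKLHL14, and 0 rose with either guide. Their median log2 change was -0.25 and -0.27. The share called was 70% and 90%, against 35.1% and 39.3% of all tested genes. The class opens with PPAT, the amidotransferase of the committed step, which had levels of 11.35 and 11.49 (sgCTRL) and 11.46 and 11.50 (sgKLHL14) in DMSO, against 11.24 and 11.15 (sgCTRL) and 11.21 and 11.19 (sgKLHL14) in ibrutinib. Each of the 4 ibrutinib libraries lay below each DMSO library, and PPAT fell by 0.23 with sgCTRL (limma adjusted p = 0.0128) and fell by 0.28 with sgKLHL14 (0.00266; SE 0.067). PAICS, the enzyme that carboxylates the imidazole ring and adds aspartate to it, stands head to head with PPAT in the sequence printed above. Its levels were 14.24 and 14.25 (sgCTRL) and 14.28 and 14.31 (sgKLHL14) in DMSO, against 13.89 and 13.91 (sgCTRL) and 13.90 and 13.89 (sgKLHL14) in ibrutinib. The 4 groups were tight, the 2 DMSO groups stood apart from both ibrutinib groups, and PAICS fell by 0.34 with sgCTRL (limma adjusted p = 7.44e-05) and fell by 0.40 with sgKLHL14 (1.20e-05; SE 0.055). The percent changes were -14.4% and -17.4% for PPAT and -21.2% and -24.1% for PAICS.

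GART, a trifunctional enzyme of the early steps, fell by 0.27 with sgCTRL (limma adjusted p = 0.00106) and fell by 0.25 with sgKLHL14 (0.00183; SE 0.057). Its levels ran from 12.78 to 12.84 in the 4 DMSO libraries and from 12.52 to 12.61 in the 4 ibrutinib libraries. PFAS, which makes formylglycinamidine ribonucleotide, changed by -0.093 with sgCTRL (limma adjusted p = 0.254) and -0.27 with sgKLHL14 (0.00180; SE 0.061). It passed with sgKLHL14 only, at levels of 12.38 and 12.39 in DMSO and 12.05 and 12.19 in ibrutinib. ADSL, a lyase that acts in both the IMP and the AMP branch, changed by -0.037 with sgCTRL (limma adjusted p = 0.684) and -0.20 with sgKLHL14 (0.0195; SE 0.063), and its DMSO and ibrutinib libraries overlapped when both guides were pooled. ATIC, which closes the ring to IMP, changed by -0.14 with sgCTRL (limma adjusted p = 0.0674) and -0.15 with sgKLHL14 (0.0423; SE 0.057), and passed with sgKLHL14 only. With sgCTRL it passed on leaving out either sgKLHL14 DMSO library (limma adjusted p = 0.0489 and 0.0488). All 4 of its ibrutinib libraries (at most 12.76) lay below all DMSO libraries (at least 12.82). Exons of ADSL overlap AL022238.4 on the same strand over 28.4% of their bases and those of GART overlap SON on the other strand over 5.58%, in the GENCODE v29 annotation. Whether counting used strand is not given in the sources used here, so some reads of such pairs may belong to the partner.

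In the guanine branch, GMPS had the lowest change of the class with either guide. GMPS, which aminates XMP to GMP, had levels of 11.89 and 11.89 (sgCTRL) and 11.89 and 11.95 (sgKLHL14) in DMSO, against 11.46 and 11.34 (sgCTRL) and 11.45 and 11.46 (sgKLHL14) in ibrutinib. The ibrutinib libraries lay well below the DMSO libraries with either guide, and GMPS fell by 0.49 with sgCTRL (limma adjusted p = 4.32e-06) and fell by 0.46 with sgKLHL14 (7.89e-06; SE 0.062), a change of -28.9% and -27.4%. The IMP dehydrogenases set the rate of this branch, and IMPDH2 is the form known to rise in proliferating lymphocytes. IMPDH2 had levels of 13.69 and 13.60 (sgCTRL) and 13.75 and 13.67 (sgKLHL14) in DMSO, against 13.32 and 13.29 (sgCTRL) and 13.38 and 13.31 (sgKLHL14) in ibrutinib. IMPDH1 had levels of 10.91 and 10.90 (sgCTRL) and 11.16 and 11.06 (sgKLHL14) in DMSO, against 10.64 and 10.55 (sgCTRL) and 10.64 and 10.69 (sgKLHL14) in ibrutinib. Neither overlapped between treatments. IMPDH2 fell by 0.34 with sgCTRL (limma adjusted p = 0.000169) and fell by 0.36 with sgKLHL14 (7.11e-05; SE 0.059). IMPDH1 fell by 0.31 with sgCTRL (limma adjusted p = 0.00149) and fell by 0.45 with sgKLHL14 (3.56e-05; SE 0.068).

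In the adenine branch ADSS, which joins aspartate to IMP, changed by -0.19 with sgCTRL (limma adjusted p = 0.0228) and -0.12 with sgKLHL14 (0.118; SE 0.061). It passed with sgCTRL only, although all 4 ibrutinib libraries (at most 12.01) were below all 4 DMSO libraries (at least 12.07). ADSSL1, known as the muscle form of ADSS, was the member left out by the level filter. It had 1, 3, 2, 8, 4, 0, 2, 1 reads in the 8 libraries, in the order sgCTRL DMSO, sgKLHL14 DMSO, sgCTRL ibrutinib and sgKLHL14 ibrutinib with 2 libraries each, which is too few to compare.

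Among the purine genes, the calls for GART, PAICS, IMPDH1, IMPDH2 and GMPS with both guides and for PFAS with sgKLHL14 held under all 18 alternatives, and the calls of 4 others did not. The call for PPAT with sgCTRL ended without the level filter (limma adjusted p = 0.102), without the variance trend (0.0667) and on leaving out sgCTRL DMSO 2 (-0.15, 0.144) or sgCTRL ibrutinib 2 (-0.18, 0.163). The call for PPAT with sgKLHL14 ended without the level filter (limma adjusted p = 0.0556). The call for ADSL with sgKLHL14 ended without the level filter (limma adjusted p = 0.107), without the variance trend (0.0813) and on leaving out sgKLHL14 DMSO 1 (-0.18, 0.0722) or sgKLHL14 ibrutinib 2 (-0.15, 0.155). The call for ATIC with sgKLHL14 ended without the level filter (limma adjusted p = 0.0617), without the variance trend (0.106), under median scaling (0.0507) and on leaving out sgKLHL14 DMSO 1 (-0.13, 0.155), sgCTRL ibrutinib 1 (0.0793), sgCTRL ibrutinib 2 (0.0794), sgKLHL14 ibrutinib 1 (0.0775) or sgKLHL14 ibrutinib 2 (0.157). The call for ADSS with sgCTRL ended without the level filter (limma adjusted p = 0.0900), without the variance trend (0.0849) and on leaving out sgCTRL DMSO 1 (0.0601), sgCTRL DMSO 2 (-0.17, 0.0937), sgCTRL ibrutinib 1 (-0.22, 0.0630) or sgCTRL ibrutinib 2 (-0.15, 0.216).

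**Figure D3:**
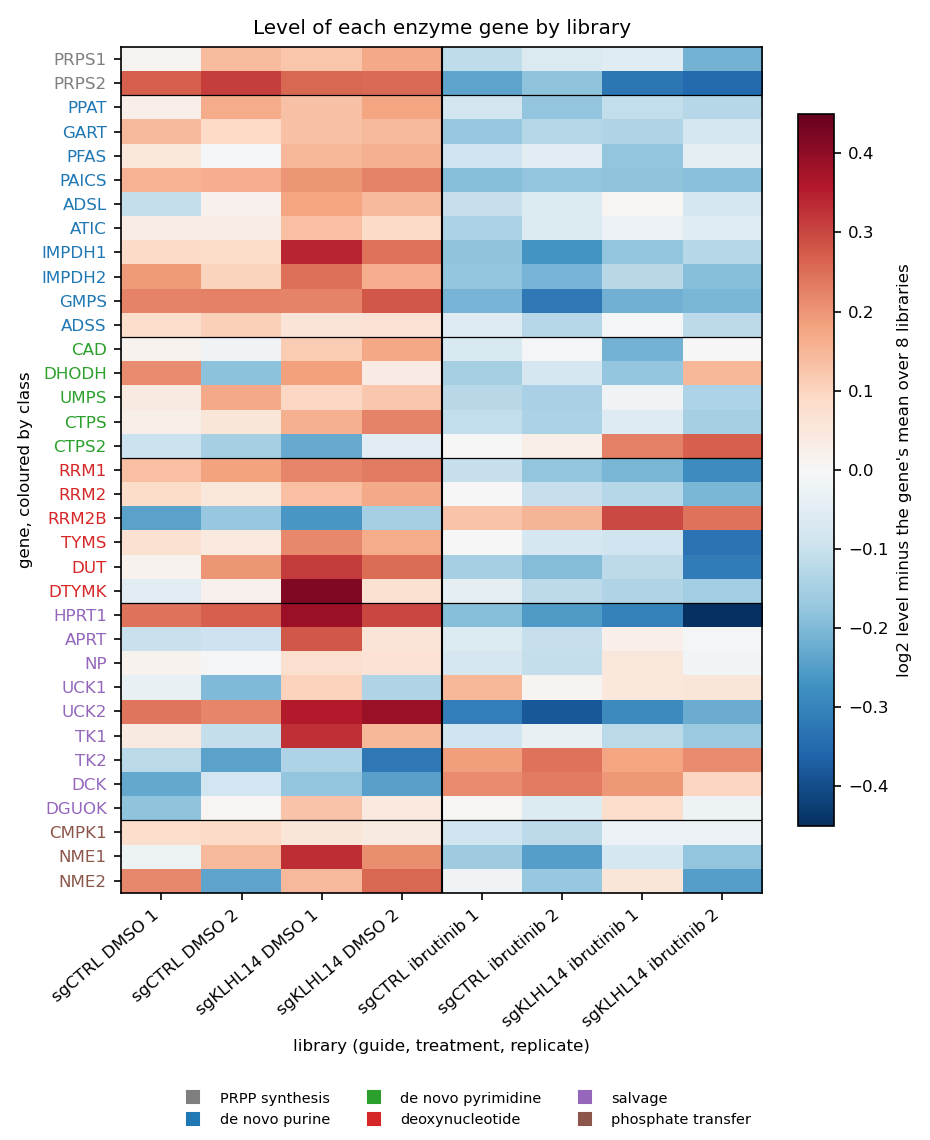
Log2 level of each enzyme (rows, coloured by class) in each of the 8 libraries (columns), minus the gene's mean over the 8 libraries; red is above the mean and blue below. The 4 DMSO columns are red and the 4 ibrutinib columns blue for most genes, with CTPS2, RRM2B, TK2 and DCK the other way round.

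The pyrimidine enzymes had calls in both directions. Of 5 tested, 2 fell with sgCTRL (UMPS and CTPS), and with sgKLHL14 2 fell (CAD and CTPS) and 1 rose (CTPS2). The medians were -0.13 and -0.18. Of these 5 genes 40% were called with sgCTRL and 60% with sgKLHL14, where 35.1% and 39.3% of all tested genes were called. CAD, which carries out the opening steps from glutamine to dihydroorotate, had levels of 12.86 and 12.82 (sgCTRL) and 12.96 and 13.01 (sgKLHL14) in DMSO, against 12.77 and 12.83 (sgCTRL) and 12.63 and 12.84 (sgKLHL14) in ibrutinib. With sgKLHL14 both ibrutinib libraries were below both DMSO libraries, but 1 of them was at the level of the sgCTRL libraries. CAD changed by -0.039 with sgCTRL (limma adjusted p = 0.682) and -0.25 with sgKLHL14 (0.00536; SE 0.066). DHODH, the mitochondrial enzyme that makes orotate, had levels of 9.29 and 8.89 (sgCTRL) and 9.26 and 9.11 (sgKLHL14) in DMSO, against 8.93 and 9.001 (sgCTRL) and 8.90 and 9.22 (sgKLHL14) in ibrutinib. Its libraries overlapped with either guide, and the changes of -0.13 with sgCTRL (limma adjusted p = 0.466) and -0.12 with sgKLHL14 (0.461; SE 0.13) did not pass.

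UMPS, which turns orotate into UMP, changed by -0.24 with sgCTRL (limma adjusted p = 0.0186) and -0.18 with sgKLHL14 (0.0614; SE 0.076). All 4 ibrutinib libraries (at most 10.29) lay below the 4 DMSO libraries (at least 10.34), and the call was made with sgCTRL only (with sgKLHL14 it passed on leaving out sgKLHL14 ibrutinib 1, limma adjusted p = 0.0445). The CTP synthases were called in opposite directions with sgKLHL14. CTPS, known as the form that proliferating lymphocytes depend on, had levels of 11.21 and 11.24 (sgCTRL) and 11.35 and 11.41 (sgKLHL14) in DMSO, against 11.08 and 11.04 (sgCTRL) and 11.13 and 11.04 (sgKLHL14) in ibrutinib. Every ibrutinib library of CTPS was below every DMSO library, and CTPS fell by 0.17 with sgCTRL (limma adjusted p = 0.0490) and fell by 0.30 with sgKLHL14 (0.00112; SE 0.064). CTPS2 had levels of 10.19 and 10.14 (sgCTRL) and 10.06 and 10.24 (sgKLHL14) in DMSO, against 10.28 and 10.31 (sgCTRL) and 10.51 and 10.55 (sgKLHL14) in ibrutinib. Its 4 ibrutinib libraries were all above the 4 DMSO libraries. The changes of CTPS2 were 0.14 with sgCTRL (limma adjusted p = 0.181) and 0.39 with sgKLHL14 (0.000521; SE 0.077), so that it rose by 30.6% with sgKLHL14 and did not pass with sgCTRL.

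The call for CAD with sgKLHL14 ended without the level filter (limma adjusted p = 0.139), without the variance trend (0.0681) and on leaving out sgKLHL14 ibrutinib 1 (-0.14, 0.119). The call for UMPS with sgCTRL ended without the level filter (limma adjusted p = 0.0966), without the variance trend (0.0585) and on leaving out sgCTRL DMSO 2 (-0.17, 0.160), sgCTRL ibrutinib 1 (0.0814) or sgCTRL ibrutinib 2 (0.112). The call for CTPS with sgCTRL ended without the level filter (limma adjusted p = 0.0799), without the variance trend (0.0980), under quantile scaling (0.0621), in limma-voom on the recovered reads (0.0526) and on leaving out sgCTRL DMSO 1 (0.104), sgCTRL DMSO 2 (-0.15, 0.153), sgCTRL ibrutinib 1 (0.146) or sgCTRL ibrutinib 2 (-0.15, 0.241). The calls for CTPS and CTPS2 with sgKLHL14 held under all 18 alternatives.

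Of the 6 deoxynucleotide enzymes, 2 fell and 1 rose with sgCTRL, and 5 fell and 1 rose with sgKLHL14. The medians were -0.11 and -0.40, and the share called was 50% and 100%, against 35.1% and 39.3% of all tested genes. Ribonucleotide reductase is built of the large subunit RRM1 with a small subunit, either RRM2, which is made in S phase, or RRM2B, which is also made outside S phase. RRM1 had levels of 12.31 and 12.35 (sgCTRL) and 12.39 and 12.40 (sgKLHL14) in DMSO, against 12.07 and 11.99 (sgCTRL) and 11.97 and 11.89 (sgKLHL14) in ibrutinib. RRM2 had levels of 12.22 and 12.19 (sgCTRL) and 12.27 and 12.30 (sgKLHL14) in DMSO, against 12.14 and 12.03 (sgCTRL) and 12.01 and 11.93 (sgKLHL14) in ibrutinib. RRM2B had levels of 11.06 and 11.13 (sgCTRL) and 11.04 and 11.15 (sgKLHL14) in DMSO, against 11.43 and 11.46 (sgCTRL) and 11.60 and 11.55 (sgKLHL14) in ibrutinib. RRM1 and RRM2 were lower in every ibrutinib library than in any DMSO library, and RRM2B was higher in every one. RRM1 fell by 0.30 with sgCTRL (limma adjusted p = 0.000584) and fell by 0.47 with sgKLHL14 (3.98e-06; SE 0.059). RRM2 changed by -0.12 with sgCTRL (limma adjusted p = 0.141) and -0.32 with sgKLHL14 (0.000351; SE 0.061) and passed with sgKLHL14 only. RRM2B rose by 0.35 with sgCTRL (limma adjusted p = 0.000353) and by 0.48 with sgKLHL14 (9.95e-06; SE 0.065), or by 27.1% and 39.1%. The calls for RRM1 and RRM2B with both guides and for RRM2 with sgKLHL14 held under all 18 alternatives.

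TYMS, the thymidylate synthase, had levels of 12.14 and 12.12 (sgCTRL) and 12.29 and 12.24 (sgKLHL14) in DMSO, against 12.07 and 11.998 (sgCTRL) and 11.98 and 11.74 (sgKLHL14) in ibrutinib. The treatments were apart, narrowly with sgCTRL and more widely with sgKLHL14, where replicate 2 in ibrutinib was lowest. TYMS changed by -0.10 with sgCTRL (limma adjusted p = 0.309) and -0.40 with sgKLHL14 (0.000150; SE 0.070). DUT, which removes dUTP and supplies dUMP, had levels of 11.12 and 11.30 (sgCTRL) and 11.42 and 11.35 (sgKLHL14) in DMSO, against 10.95 and 10.91 (sgCTRL) and 10.98 and 10.79 (sgKLHL14) in ibrutinib. Its ibrutinib libraries were all below its DMSO libraries, and DUT fell by 0.28 with sgCTRL (limma adjusted p = 0.00793) and fell by 0.50 with sgKLHL14 (3.88e-05; SE 0.077). DTYMK, which phosphorylates dTMP, had levels of 10.37 and 10.44 (sgCTRL) and 10.84 and 10.49 (sgKLHL14) in DMSO, against 10.38 and 10.30 (sgCTRL) and 10.29 and 10.26 (sgKLHL14) in ibrutinib. The libraries overlapped with sgCTRL, and replicate 1 of sgKLHL14 in DMSO stood above the other 7. DTYMK changed by -0.066 with sgCTRL (limma adjusted p = 0.602) and -0.39 with sgKLHL14 (0.00204; SE 0.090). With sgCTRL, TYMS and DTYMK did not pass. The call for TYMS with sgKLHL14 ended without the level filter (limma adjusted p = 0.0573). The call for DUT with sgCTRL ended without the level filter (limma adjusted p = 0.176), without the variance trend (0.0772) and on leaving out sgCTRL DMSO 2 (-0.19, 0.125) or sgCTRL ibrutinib 2 (-0.26, 0.0730). The call for DTYMK with sgKLHL14 ended without the level filter (limma adjusted p = 0.139) and on leaving out sgKLHL14 DMSO 1 (-0.21, 0.0640). In GENCODE v29, 58.2% of the exon bases of TYMS overlap ENOSF1 on the other strand, 27.9% of those of RRM2 overlap AC007240.1 on the same strand and 17.2% of those of DUT overlap AC023355.1 on the other, and such reads may not be told apart.

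The 9 salvage enzymes held the lowest change of the set with either guide (UCK2 with sgCTRL, HPRT1 with sgKLHL14) and 2 of its rises (DCK and TK2). With sgCTRL 2 fell and 2 rose, and with sgKLHL14 3 fell and 2 rose, with medians of 0.015 and -0.057. The share called was 44.4% and 55.6%, against 35.1% and 39.3% of all tested genes. HPRT1, which returns hypoxanthine and guanine to IMP and GMP, had levels of 10.96 and 10.99 (sgCTRL) and 11.10 and 11.02 (sgKLHL14) in DMSO, against 10.52 and 10.46 (sgCTRL) and 10.41 and 10.27 (sgKLHL14) in ibrutinib. The ibrutinib libraries were far below the DMSO libraries, and lowest with sgKLHL14. HPRT1 fell by 0.48 with sgCTRL (limma adjusted p = 3.25e-05) and fell by 0.72 with sgKLHL14 (2.07e-07; SE 0.072), a change of -28.4% and -39.2%. UCK2, the uridine-cytidine kinase of higher activity, had levels of 9.996 and 9.98 (sgCTRL) and 10.11 and 10.14 (sgKLHL14) in DMSO, against 9.45 and 9.38 (sgCTRL) and 9.47 and 9.53 (sgKLHL14) in ibrutinib. Each of its ibrutinib libraries was below each DMSO library, and UCK2 fell by 0.58 with sgCTRL (limma adjusted p = 1.26e-05) and fell by 0.63 with sgKLHL14 (4.03e-06; SE 0.079), a change of -32.9% and -35.3%. Its paralogue UCK1 had levels of 9.06 and 8.90 (sgCTRL) and 9.20 and 8.96 (sgKLHL14) in DMSO, against 9.25 and 9.11 (sgCTRL) and 9.14 and 9.15 (sgKLHL14) in ibrutinib, which overlapped across the 8 libraries, and its changes of 0.20 with sgCTRL (limma adjusted p = 0.151) and 0.067 with sgKLHL14 (0.646; SE 0.10) did not pass.

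DCK, which phosphorylates deoxycytidine and activates drugs such as cytarabine and gemcitabine, had levels of 11.59 and 11.73 (sgCTRL) and 11.64 and 11.58 (sgKLHL14) in DMSO, against 12.03 and 12.05 (sgCTRL) and 12.01 and 11.92 (sgKLHL14) in ibrutinib. Every ibrutinib library was above every DMSO library. DCK rose by 0.38 with sgCTRL (limma adjusted p = 0.000136) and by 0.36 with sgKLHL14 (0.000221; SE 0.065), or by 30.3% and 28.1%. TK2, the thymidine kinase of mitochondria, had levels of 7.63 and 7.51 (sgCTRL) and 7.61 and 7.43 (sgKLHL14) in DMSO, against 7.94 and 7.995 (sgCTRL) and 7.93 and 7.96 (sgKLHL14) in ibrutinib. It was also higher in every ibrutinib library, on few reads (99 to 167 per library), and rose by 0.40 with sgCTRL (limma adjusted p = 0.0277) and by 0.43 with sgKLHL14 (0.0164; SE 0.13). In GENCODE v29, 17.6% of its exon bases overlap AC010542.4 on the other strand. TK1, the cytosolic thymidine kinase of S phase, had levels of 10.44 and 10.29 (sgCTRL) and 10.73 and 10.55 (sgKLHL14) in DMSO, against 10.31 and 10.36 (sgCTRL) and 10.28 and 10.23 (sgKLHL14) in ibrutinib. With sgCTRL the treatments overlapped, and with sgKLHL14 both DMSO libraries stood above all others. TK1 changed by -0.028 with sgCTRL (limma adjusted p = 0.815) and -0.38 with sgKLHL14 (0.000729; SE 0.079), and passed with sgKLHL14 only.

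DGUOK, the deoxyguanosine kinase of mitochondria, changed by 0.060 with sgCTRL (limma adjusted p = 0.566) and -0.058 with sgKLHL14 (0.574; SE 0.075). APRT, which recovers adenine, changed by 0.015 with sgCTRL (limma adjusted p = 0.894) and -0.16 with sgKLHL14 (0.0829; SE 0.071). NP, the purine nucleoside phosphorylase, changed by -0.10 with sgCTRL (limma adjusted p = 0.195) and -0.049 with sgKLHL14 (0.524; SE 0.057). None of these 3 passed, and in each the libraries of the 2 treatments overlapped when both guides were pooled. Within a guide, the treatments did not overlap for NP with either guide or for APRT with sgKLHL14, and they overlapped for DGUOK. The calls for HPRT1, UCK2 and DCK with both guides held under all 18 alternatives. The call for TK2 with sgCTRL ended without the level filter (limma adjusted p = 0.0517), under quantile scaling (0.32, 0.0630) and on leaving out sgCTRL DMSO 1 (0.46, 0.0529), sgCTRL DMSO 2 (0.34, 0.137), sgCTRL ibrutinib 1 (0.42, 0.0862) or sgCTRL ibrutinib 2 (0.37, 0.140). The call for TK2 with sgKLHL14 ended on leaving out sgKLHL14 DMSO 2 (0.34, limma adjusted p = 0.128) or sgKLHL14 ibrutinib 2 (0.41, 0.0726). The call for TK1 with sgKLHL14 ended without the level filter (limma adjusted p = 0.0560). APRT passed with sgKLHL14 in 1 setting, on leaving out sgKLHL14 DMSO 2 (-0.27, limma adjusted p = 0.00659).

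Of the 3 phosphate transfer enzymes, 2 fell with sgCTRL (CMPK1 and NME1) and 1 with sgKLHL14 (NME1), with medians of -0.19 and -0.30. The share called was 66.7% and 33.3%, against 35.1% and 39.3% of all tested genes. NME1, a nucleoside diphosphate kinase, had levels of 11.72 and 11.88 (sgCTRL) and 12.07 and 11.95 (sgKLHL14) in DMSO, against 11.58 and 11.49 (sgCTRL) and 11.66 and 11.56 (sgKLHL14) in ibrutinib. The treatments were apart with either guide, and NME1 fell by 0.27 with sgCTRL (limma adjusted p = 0.00625) and fell by 0.40 with sgKLHL14 (0.000160; SE 0.070). CMPK1, which phosphorylates UMP and CMP, changed by -0.19 with sgCTRL (limma adjusted p = 0.0142) and -0.075 with sgKLHL14 (0.309; SE 0.056). Its ibrutinib libraries (at most 12.21) were all below its DMSO libraries (at least 12.28), and with sgKLHL14 it passed without the level filter (limma adjusted p = 0.0387). NME2, a second nucleoside diphosphate kinase, had levels of 10.37 and 9.92 (sgCTRL) and 10.30 and 10.41 (sgKLHL14) in DMSO, against 10.14 and 9.98 (sgCTRL) and 10.21 and 9.91 (sgKLHL14) in ibrutinib. The spread within sgCTRL in DMSO was wide, and its changes of -0.084 with sgCTRL (limma adjusted p = 0.616) and -0.30 with sgKLHL14 (0.0519; SE 0.12) did not pass. With sgKLHL14 NME2 passed in 6 settings, among them the omission of sgKLHL14 ibrutinib 1 (-0.45, limma adjusted p = 0.0165), sgCTRL DMSO 1 (0.0211), sgCTRL DMSO 2 (0.0206) or sgCTRL ibrutinib 2 (0.0491). The call for CMPK1 with sgCTRL ended on leaving out sgCTRL DMSO 2 (limma adjusted p = 0.0545), sgCTRL ibrutinib 1 (0.0765) or sgCTRL ibrutinib 2 (-0.17, 0.137). The call for NME1 with sgCTRL ended without the level filter (limma adjusted p = 0.149), without the variance trend (0.0704) and on leaving out sgCTRL DMSO 2 (-0.18, 0.101) or sgCTRL ibrutinib 2 (-0.22, 0.0937). The call for NME1 with sgKLHL14 ended without the level filter (limma adjusted p = 0.0515). NME1 and NME2 are neighbours of closely similar sequence, and GENCODE v29 places 32.4% and 40.4% of their exon bases in the read-through gene NME1-NME2, so how their reads were split is uncertain.

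Several enzymes of the set come as related pairs, and the difference of their log2 levels within a library shows how the pair shifted, free of the library's scaling. The level of such a difference also holds the lengths of both transcripts, so only its shift is described, with no test. UCK2 minus UCK1 was 0.93 and 1.08 (sgCTRL) and 0.91 and 1.18 (sgKLHL14) in DMSO, against 0.20 and 0.26 (sgCTRL) and 0.33 and 0.38 (sgKLHL14) in ibrutinib. The treatments did not overlap, and the mean shift was -0.73, the largest of the 8 pairs. RRM2B minus RRM2 moved the other way, from -1.23 to -1.05 in DMSO to -0.71 to -0.38 in ibrutinib, a mean shift of 0.63. RRM2B thus gained on RRM2 in all 4 ibrutinib libraries.

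TK2 minus TK1 shifted by 0.62, CTPS2 minus CTPS by 0.49, DCK minus DGUOK by 0.37 and PRPS2 minus PRPS1 by -0.32. In each of these 4 pairs the DMSO and ibrutinib libraries were apart. IMPDH2 minus IMPDH1 shifted by 0.026 and NME2 minus NME1 by 0.14, and in both the treatments overlapped.

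**Figure D4:**
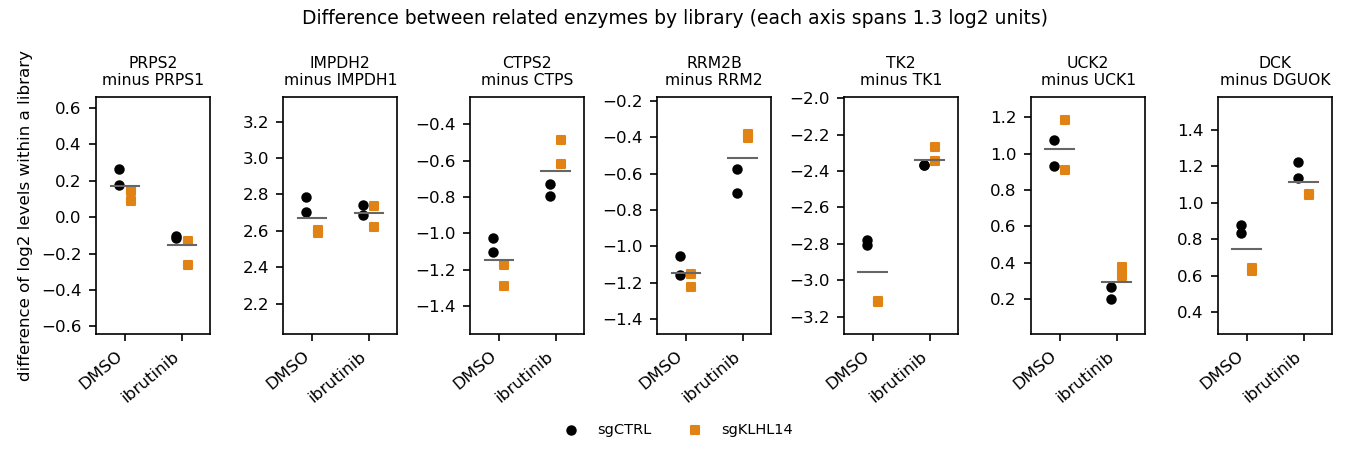
Difference of log2 levels between 2 related enzymes within each library, for 7 of the 8 pairs (not NME2 minus NME1), by treatment, for sgCTRL (black circles) and sgKLHL14 (orange squares), with grey lines at the mean of 4 libraries; each axis spans 1.3 log2 units. UCK2 minus UCK1 shifted by -0.73 and RRM2B minus RRM2 by 0.63, while IMPDH2 minus IMPDH1 overlapped between treatments.

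Between the guides, none of the 35 tested enzymes passed the test in either treatment. In DMSO, limma called 0 of the 35 enzymes between sgKLHL14 and sgCTRL, where 1.64% of all tested genes were called. At an unadjusted p under 0.05 there were 11 (PFAS, ADSL, IMPDH1, CAD, CTPS, DUT, DTYMK, APRT, TK1, DGUOK and NME1), or 31.4% against 13.8% of all tested genes, and limma-voom on the recovered reads also called 0. All 11 had the higher level with sgKLHL14. Of the 35 enzymes, 29 had a difference above 0 and 6 had one below 0 (17.1% below, against 49.2% of all tested genes). The median was 0.085, against 0.0030 over all tested genes. The smallest adjusted p belonged to APRT, at 11.54 and 11.32 with sgKLHL14 and 11.16 and 11.17 with sgCTRL. Its difference was 0.27 (SE 0.071, limma adjusted p = 0.0661). TK1 differed by 0.27 (SE 0.079, adjusted p = 0.0948) and DTYMK by 0.26 (SE 0.090, adjusted p = 0.183). Replicate 1 of sgKLHL14 in DMSO was the highest of all 8 libraries for APRT, TK1 and DTYMK. On leaving out sgKLHL14 DMSO 2, so that replicate 1 stood alone, the differences were 0.38 for APRT, 0.43 for DTYMK and 0.36 for TK1. On leaving out sgKLHL14 DMSO 1 instead, they were 0.16 for APRT and 0.085 for DTYMK.

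In ibrutinib, limma again called 0 of the 35 enzymes between the guides, where 2.38% of all tested genes were called, and limma-voom called 0. At an unadjusted p under 0.05 there were 4, or 11.4% against 12.9% of all tested genes. The difference was above 0 for 19 enzymes and below 0 for 16 (45.7% below, against 51.4% of all tested genes). CTPS2 had the largest difference, 0.23 higher with sgKLHL14 (SE 0.077, limma adjusted p = 0.135). TYMS differed by -0.17 (0.273), HPRT1 by -0.15 (0.383) and PRPS2 by -0.13 (0.363), adjusted p from limma in parentheses. On leaving out sgKLHL14 ibrutinib 2, TYMS differed by -0.052 and HPRT1 by -0.079, and on leaving out sgKLHL14 ibrutinib 1, TYMS differed by -0.29, with 0 calls in both settings.

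More enzymes were called for ibrutinib with sgKLHL14 than with sgCTRL, but the difference between the responses was called for 0 of the 35 by limma and 0 by limma-voom, where 0.0239% of all tested genes were called. At an unadjusted p under 0.05 there were 7, or 20% against 5.69% of all tested genes. They were CAD, CTPS2, RRM2, TYMS, DTYMK, HPRT1 and TK1. Across the 35, the difference in response was below 0 for 25 and above 0 for 10 (71.4% below, against 51.2% of all tested genes). The response of TK1 (sgKLHL14 minus sgCTRL) differed most, by -0.36 (SE 0.11, limma adjusted p = 0.677), followed by DTYMK (-0.32, adjusted p = 0.858) and TYMS (-0.31, 0.696). CTPS2 differed by 0.25 (0.873) in the other direction. Several of these values moved with 1 library: DTYMK to -0.15 without sgKLHL14 DMSO 1 and -0.50 without sgKLHL14 DMSO 2, TYMS to -0.19 without sgKLHL14 ibrutinib 2, and CTPS2 to 0.16 without sgKLHL14 DMSO 1. The 10 enzymes called with sgKLHL14 only (PRPS1, PFAS, ADSL, ATIC, CAD, CTPS2, RRM2, TYMS, DTYMK and TK1) and the 3 called with sgCTRL only (ADSS, UMPS and CMPK1) were not shown to respond differently by guide. The difference uses the same DMSO libraries as the comparison of guides in DMSO. For TK1, the sgKLHL14 DMSO libraries stood at 10.73 and 10.55 against 10.44 and 10.29 with sgCTRL, and the ibrutinib libraries at 10.28 and 10.23 against 10.31 and 10.36.

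**Figure D5:**
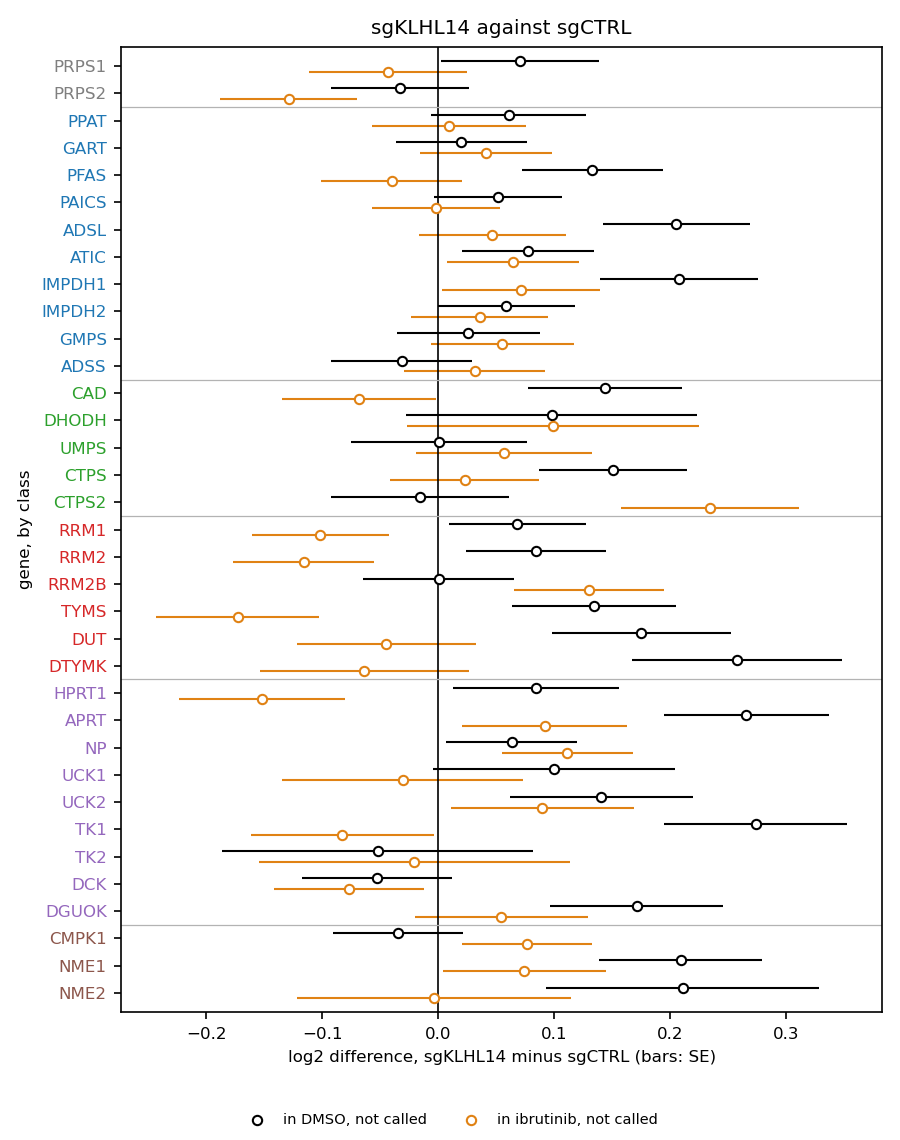
Log2 difference between sgKLHL14 and sgCTRL for each of the 35 tested enzymes, with the SE as bars, in DMSO (black) and in ibrutinib (orange). All points are open, since 0 were called in either treatment; 29 of the 35 points in DMSO lie right of 0.

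Genes beside the listed enzymes, which feed, break down or carry nucleotides, were counted in the same fit. Of 73 on this list 70 were in the table and 52 were tested: 17 fell and 5 rose with sgCTRL, and 25 fell and 5 rose with sgKLHL14, with medians of -0.13 and -0.19. The share called was 42.3% and 57.7%, against 35.1% and 39.3% of all tested genes. The folate genes, which supply formyl groups to GART and ATIC and the methyl group to TYMS, had the lowest medians of the 4 groups on this list (-0.35 and -0.45). Of 11 tested, 7 fell and 1 rose with sgCTRL and 8 fell and 1 rose with sgKLHL14 (72.7% and 81.8% called). SHMT2, the mitochondrial serine hydroxymethyltransferase, had levels of 13.72 and 13.63 (sgCTRL) and 13.88 and 13.72 (sgKLHL14) in DMSO, against 12.79 and 12.80 (sgCTRL) and 12.86 and 12.93 (sgKLHL14) in ibrutinib. The treatments were far apart, and SHMT2 fell by 0.88 with sgCTRL (limma adjusted p = 2.19e-09) and fell by 0.90 with sgKLHL14 (1.69e-09; SE 0.063). MTHFD1L, which releases formate from mitochondria, fell by 1.34 with sgCTRL (limma adjusted p = 1.68e-09) and fell by 1.28 with sgKLHL14 (3.00e-09; SE 0.093). ALDH1L2, a mitochondrial formyltetrahydrofolate dehydrogenase, fell by 2.13 with sgCTRL (limma adjusted p = 3.24e-10) and fell by 1.72 with sgKLHL14 (5.88e-09; SE 0.13). MTHFD2 fell by 0.53 with sgCTRL (limma adjusted p = 2.24e-06) and fell by 0.45 with sgKLHL14 (1.51e-05; SE 0.063) and the cytosolic MTHFD1 fell by 0.30 with sgCTRL (limma adjusted p = 0.000292) and fell by 0.46 with sgKLHL14 (2.03e-06; SE 0.055).

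Of 19 tested genes of breakdown and interconversion, 5 fell and 3 rose with sgCTRL, and 10 fell and 4 rose with sgKLHL14. The share called was 42.1% and 73.7%, against 35.1% and 39.3% of all tested genes. TYMP, the thymidine phosphorylase, had levels of 11.44 and 11.19 (sgCTRL) and 11.05 and 10.85 (sgKLHL14) in DMSO, against 10.36 and 10.41 (sgCTRL) and 10.26 and 10.28 (sgKLHL14) in ibrutinib. It fell by 0.93 with sgCTRL (limma adjusted p = 5.66e-08) and fell by 0.68 with sgKLHL14 (3.32e-06; SE 0.084), and it was the only gene of the 52 called between guides in DMSO, where it was lower with sgKLHL14 by 0.37 (limma adjusted p = 0.0289). NT5DC2, named for its 5'-nucleotidase domain, fell by 0.37 with sgCTRL (limma adjusted p = 0.000498) and fell by 0.51 with sgKLHL14 (1.24e-05; SE 0.071). Of 17 other kinases and salvage genes, 4 fell and 1 rose with sgCTRL, and 5 fell and 0 rose with sgKLHL14, so that 29.4% were called with either guide, below the share of all tested genes. NME4, a mitochondrial nucleoside diphosphate kinase, fell by 0.46 with sgCTRL (limma adjusted p = 0.000300) and fell by 0.23 with sgKLHL14 (0.0362; SE 0.084). Of 5 tested carriers, 1 fell with sgCTRL and 2 with sgKLHL14 (20% and 40% called, against 35.1% and 39.3% of all tested genes). SLC29A1, the main equilibrative nucleoside transporter, had levels of 11.92 and 11.94 (sgCTRL) and 12.06 and 11.96 (sgKLHL14) in DMSO, against 11.41 and 11.33 (sgCTRL) and 11.34 and 11.38 (sgKLHL14) in ibrutinib. All ibrutinib libraries were below all DMSO libraries, and SLC29A1 fell by 0.56 with sgCTRL (limma adjusted p = 1.05e-06) and fell by 0.65 with sgKLHL14 (1.27e-07; SE 0.063).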

How the data were processed

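Total RNA of 8 TMD8 libraries went into a stranded mRNA kit and was read from both ends, per the labels' protocols. Reads were aligned with STAR and counted with HTSeq on hg19, per the submitters' processing notes, with versions and gene annotation not given in the sources used here. The deposited table held normalized gene values as log2, per the file headers. Each was the log2 of whole reads scaled by 1 factor per library: 100% of values were whole reads within 6e-04 on the log2 scale, 1 read being worth 1.16 to 2.19. Its row of total reads was kept out. It had 0 columns of other samples. Genes with a mean log2 level of at least 4.20 entered a limma 3.58.1 model of 4 group means (R 4.3.3, variance trend, 4 residual and 14.9 prior degrees of freedom). A gene was called where its p, adjusted by Benjamini-Hochberg over all 12533 genes, was under 0.05. The alternatives were 18 per comparison. The fit was tested on simulated data. Low genes in shallow libraries carry more counting error. The members, gene lists and tests were chosen with earlier results of these data known. All 36 members are named, and from the list of other nucleotide genes those called, at most 10 per comparison by smallest p, apart from some genes that are not reported here. Promoters come from RefSeq on GRCh38.p14 and overlaps from GENCODE v29, not the build of the files.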

Additional observations from a re-analysis of the deposited data

How the results depend on the processing

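Each comparison was repeated under 18 alternatives, and no enzyme's called change reversed. Of the 45 calls for ibrutinib over both guides, 27 held in all 18, 9 in 15 or more but not all, and 9 in fewer. With sgCTRL 19 enzymes were called. Without the level filter this was 12, when the calls over all genes were 2280 in place of 4403. Leaving out 1 library gave 11 to 21, with 11 on leaving out either sgCTRL DMSO 2 or sgCTRL ibrutinib 2, when the calls over all genes were 3590 and 2902. With sgKLHL14 26 were called, and all alternatives gave 18 (no level filter) to 27, with 2838 calls over all genes in place of 4924 without the filter. For the guides in DMSO 0 were called, and the differences of APRT, DTYMK and TK1 depended on which sgKLHL14 DMSO library was left out. Between guides in ibrutinib, 0 were called in all 18, and likewise for the difference in response. No library's median over the tested genes lay over 0.1 from the others, and median or quantile scaling ended the call of ATIC with sgKLHL14 or of CTPS and TK2 with sgCTRL. With replicate number as a block (replicate block), 20 enzymes were called with sgCTRL, 27 with sgKLHL14, 2 between guides in DMSO (APRT, 0.27, limma adjusted p = 0.0240, and TK1, 0.27, 0.0410), 0 in ibrutinib and 0 for the difference. Deviations of same-numbered libraries correlated at -0.055 to 0.12. Whether such libraries shared a culture or batch is not given in the sources used here, and these correlations cannot settle it. With the block, calls over all genes were 4757 in place of 4403 with sgCTRL and 5262 in place of 4924 with sgKLHL14. Between guides they were 368 in place of 206 in DMSO and 432 in place of 298 in ibrutinib. For the difference they were 5 in place of 3. Calls over all genes ran from 25 to 530 for the guides in DMSO (206 in the fit reported), from 19 to 432 in ibrutinib (298) and from 0 to 5 for the difference (3). Where calls were lost, the cause was not tested. TK2 rested on few reads (99 to 167 per library), and its calls with both guides held with reads thinned to the shallowest library.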

Other observations

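Regulators known to act on nucleotide genes were measured in the same fit, and their part in the enzymes' changes was not tested. MYC, which is known to drive many of these enzymes, had levels of 12.43 and 12.27 (sgCTRL) and 12.45 and 12.33 (sgKLHL14) in DMSO, against 11.99 and 11.92 (sgCTRL) and 12.22 and 12.22 (sgKLHL14) in ibrutinib. It fell by 0.40 in ibrutinib with sgCTRL (limma adjusted p = 0.000110) and changed by -0.17 with sgKLHL14 (0.0543), and in ibrutinib it was higher with sgKLHL14 by 0.27 (0.0341), although the difference in response was not called (adjusted p = 0.858). ATF4, known to induce the mitochondrial folate genes, had levels of 13.49 and 13.45 (sgCTRL) and 13.63 and 13.55 (sgKLHL14) in DMSO, against 12.61 and 12.62 (sgCTRL) and 12.77 and 12.67 (sgKLHL14) in ibrutinib, and fell by 0.86 with sgCTRL (limma adjusted p = 1.29e-09) and fell by 0.88 with sgKLHL14 (9.97e-10; SE 0.058). Of the E2F factors of S phase, E2F2 rose by 0.85 with sgCTRL (limma adjusted p = 1.23e-07) and by 0.62 with sgKLHL14 (6.43e-06; SE 0.081), E2F1 changed by 0.21 with sgCTRL (limma adjusted p = 0.0333) and 0.063 with sgKLHL14 (0.541; SE 0.075) and E2F3 by -0.086 with sgCTRL (limma adjusted p = 0.414) and -0.22 with sgKLHL14 (0.0277; SE 0.078). BTK, the target of ibrutinib, rose by 0.17 with sgCTRL (limma adjusted p = 0.0283) and by 0.28 with sgKLHL14 (0.000585; SE 0.057).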
